A study of Mus musculus with 44 samples.

Results

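The basement membrane is the thin sheet of matrix on which epidermal, endothelial, muscle, fat and nerve cells rest. Its messenger RNAs were followed in mouse back skin during bleomycin-induced fibrosis and recovery. The 31 genes were a set list of collagen IV chains, laminin chains, nidogens, perlecan, agrin, the collagens XV and XVIII, and proteins that anchor the sheet, found by symbol among 43411 annotated genes. All 31 had a mean normalized count above 3 and were tested, among 17037 genes that passed this filter.

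RNA-seq was performed on back skin biopsies from 44 female C57Bl/6 mice, which were 8 weeks old when the injections began. 10 mice received saline, 10 received bleomycin for 2 weeks and 10 received bleomycin for 4 weeks. Bleomycin was given under the skin each day, as 100 µL at 1 U/mL by the labels, although a supplementary legend gives a lower concentration. A further 6 and 8 mice received bleomycin for 4 weeks and were then left untreated for 6 and 10 weeks. The age of the saline mice at harvest is not given in the sources used here, so age and treatment cannot be told apart in the comparisons with saline. The bleomycin and recovery groups, whose courses differ in length, also differ from each other in age at harvest. The biopsies are bulk tissue, in which fewer cells of a type and less RNA per cell cannot be told apart.

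Each library held between 8509094 and 15285577 reads on genes (median 11310008). Saline mouse 1 and 2-week mouse 2 correlated least with the mice of their own groups, at a median of 0.9421 and 0.9378. The next lowest were 10-week recovery mouse 4 at 0.9473 and saline mouse 6 at 0.9493. Saline mouse 1 and 2-week mouse 2 are named below as the 2 mice that stood apart, but the line drawn after them is a choice. The 2-week mouse had the lowest value of its group for 24 of the 31 members, and saline mouse 1 for 12 (saline mouse 2, which did not stand apart, was lowest for 15). Results of members that rest on the 2 mice that stood apart are therefore given with all 44 mice and with the remaining 42. For the other gene lists, counts of calls against saline with 42 mice are given where they differ. At 4 weeks of bleomycin, mice 1 to 3 lay below the other 7 mice for 11 of the 31 members, among them Col4a1, Col4a2, Lamb1, Nid2, Hspg2, Col15a1, Col18a1 and Tinagl1, and above them for Lama3 and Col4a5. These 3 libraries held 8509094 to 11082162 reads on genes, against 11278321 to 13902575 in the other 7. Values without these 3 mice are given where they differ, as an alternative chosen after seeing the members' values. Summed markers of basal keratinocytes, fibroblasts, endothelium, skeletal muscle and fat were above 0 in every mouse.

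A basement membrane is built from networks of laminin and of collagen IV. Laminin trimers, each of an alpha, a beta and a gamma chain, bind cell surface receptors, and collagen IV trimers form a covalent net. Nidogens and perlecan link both networks. The epidermis rests on a laminin made with the alpha chain Lama3 and the beta chain Lamb3, and is anchored through collagen XVII in the hemidesmosome and through collagen VII fibrils in the dermis below. Blood vessels carry laminins with the alpha chain Lama4, and collagens XV and XVIII are found in vessel and muscle sheets. Partly on this basis 10 members were classed as vascular or stromal and 9 as epidermal, and the other 12 as shared or other. The first class is broad, as Col4a1 and Col4a2 are found in nearly all basement membranes and Col18a1 also in epithelial sheets. A contrast of these classes is therefore not one of vessels with epidermis alone.

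Collagen IV genes lie in head-to-head pairs, so that both genes of a pair are transcribed outwards from nearly the same place. The sequences where the starts of 2 such pairs meet are shown. In the results the ratio of Col4a1 to Col4a2 is tested, and Col4a3 and Col4a4 are each compared with saline. In GRCm38 the annotated starts of Col4a1 and Col4a2 overlap by 22 bases on chromosome 8, those of Col4a4 and Col4a3 lie 71 bases apart on chromosome 1, and those of Col4a6 and Col4a5 lie 1308 bases apart on the X chromosome. The sequences are RefSeq sequences of GRCm38.p6, written on the plus strand, with GENCODE M21 gene starts. The whole printed stretches, with their flanks in small letters, are chr8:11312801-11312830 and chr1:82586845-82586925. Capitals mark the bases transcribed from both strands for Col4a1 and Col4a2 and the bases between the starts for Col4a4 and Col4a3.
Col4a1 and Col4a2: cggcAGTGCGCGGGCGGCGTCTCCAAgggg
Col4a4 and Col4a3: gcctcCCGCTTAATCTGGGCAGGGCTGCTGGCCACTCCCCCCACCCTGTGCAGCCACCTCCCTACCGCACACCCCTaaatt
The overlap of Col4a1 and Col4a2 holds the letters GGGCGG, and the stretch of Col4a4 and Col4a3 holds no match, on either strand, to this or to the 2 other motifs named below. Over RefSeq promoter windows of 300 bases of the 23 members matched, searched on both strands, 18 of 30 windows held GGGCGG (60.0%), against 35.7% of all 32851 windows. CCAAT was held by 40.0% of the members' windows and by 37.4% of all windows. TATAAA was held by 3.33% of the members' windows and by 13.6% of all windows. These are letter matches and not shown binding sites.

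In saline skin the members spanned a wide range of levels per length, given as RPKM (reads per kb of exon, scaled to the reads of the library on genes). Col17a1, the hemidesmosomal collagen of basal keratinocytes, was highest at 184 ± 51.7 (SD, n = 10). Col4a1 followed at 54.3 ± 14.5 and Col4a2, the partner chain in the common collagen IV trimer, at 38.5 ± 11.2. The beta chain Lamb2 stood at 29.7 ± 8.55, Col15a1 at 27.9 ± 8.21, the heparan sulfate proteoglycan Agrn at 27.5 ± 4.69 and Nid1 at 25.7 ± 3.37, and the SDs of these 4 overlap. The lowest levels per length were those of Lama1 at 0.279 ± 0.166, Frem1 at 0.586 ± 0.198 and Col4a3 at 0.602 ± 0.204. The lowest number of reads for any member in any mouse was 6, against a floor of 3 reads taken as not detected.

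**Figure D1:**
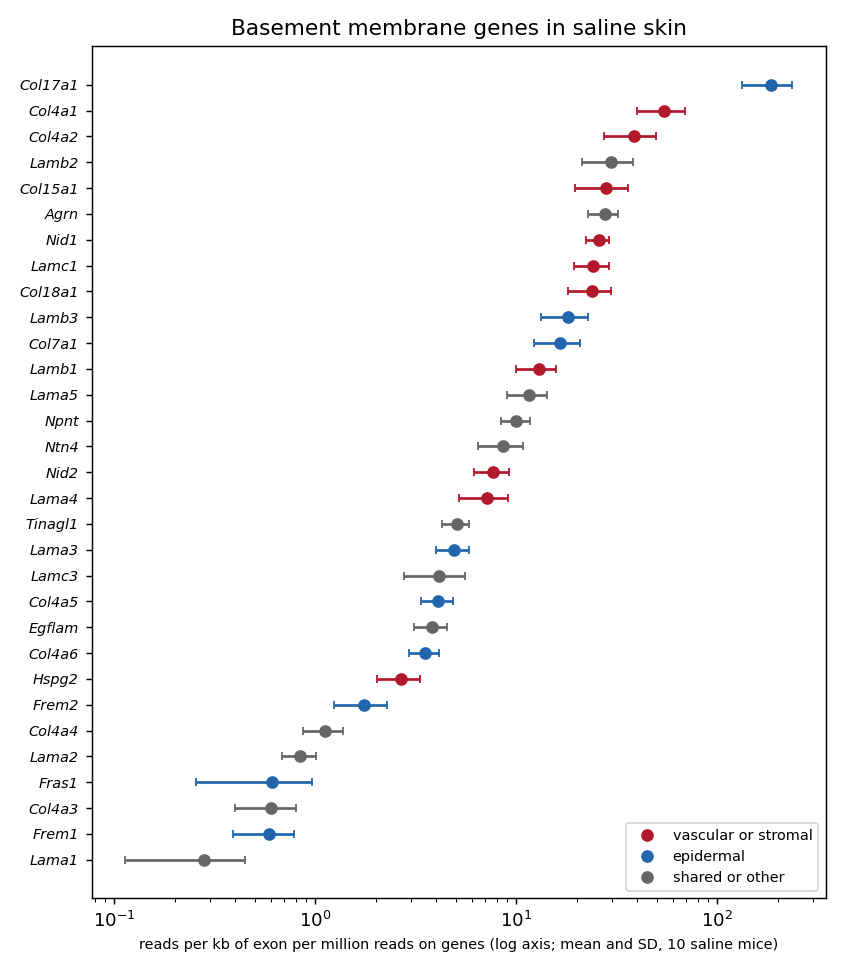
Level of each of the 31 basement membrane genes in saline skin, in RPKM (reads per kb of exon, scaled to library reads), on a log axis. Points are means and bars are SDs over 10 mice; colours give the class. Col17a1 stands highest at 184 and Lama1 lowest at 0.279.

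At 2 weeks of bleomycin, 5 of the 10 vascular or stromal members, 1 of the 9 epidermal and 3 of the other 12 were called lower, and none was called higher. A call required an absolute fold change above 1.5 and a Benjamini-Hochberg adjusted p below 0.05 in limma, fitted across all 17037 genes. By this rule 9 of the 31 members fell (29.0%) and 0 rose, against 7.43% of all genes called lower, 9.30% called higher and 16.7% called in either direction. Without the fold threshold 15 members passed (2 of them higher), against 35.6% of all genes. At an unadjusted p below 0.05 in limma 3 members were higher, and edgeR and DESeq2 each called 0 higher and 7 lower, of which 3 were vascular or stromal. Those that fell were Nid1, Nid2, Lamb1, Col4a2 and Col15a1 of the vascular or stromal class, Fras1 of the epidermal class, and Lamc3, Lama2 and Col4a3 of the others. With 42 mice 6 members were called, and Col4a2, Lamb1 and Nid2 were no longer among them. At 2 weeks mice 3, 8, 9 and 10 lay above the other mice for several members, as seen after looking at the values. Counts were 2203 to 2338 against 864 to 1654 for Lamc1 and 1476 to 2192 against 407 to 999 for Col15a1. For Lamc3 they were 212 to 261 against 39.0 to 127. Nid1 was also split, at 1198 to 1409 against 570 to 1014, with both sets below the saline mice. Col4a2 and Fras1 were not split in this way. What the split does to the calls was not tested.

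Nid1, the nidogen that bridges laminin and collagen IV, gave the clearest separation (ENSMUSG00000005397.7, chr13:13437551-13512269, plus strand). Its normalized count ranged from 1672 to 2494 in saline mice, with a median of 2043. At 2 weeks the lowest, median and highest values were 570, 963 and 1409, and at 4 weeks they were 982, 1263 and 1515. Every bleomycin mouse lay below every saline mouse at both times, which held for 4.77% of all genes at 2 weeks and for 6.52% at 4 weeks. The log2 fold change was -1.03 ± 0.13 (SE) at 2 weeks (adjusted p = 8.21e-09) and -0.69 ± 0.13 at 4 weeks (adjusted p = 2.28e-05). Without the 2 mice that stood apart, the values were -0.97 and -0.71.

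Nid2 is the second nidogen. Its counts ran from 249 to 525 in saline mice (median 464) and from 157 to 516 at 2 weeks (median 282), so the groups overlapped. It was lower at 2 weeks by a log2 fold change of -0.59 ± 0.18 (adjusted p = 0.00794), only just past the fold threshold of 0.585 on the log2 scale. The change fell below that threshold with edgeR, DESeq2, TMM scaling and 42 mice, with values of -0.48, -0.50, -0.57 and -0.51. At 4 weeks the log2 fold change was -0.16 ± 0.18 (adjusted p = 0.506). Nid2 overlaps Rtraf on the opposite strand, so its count, and the ratio below, depend on how strand was handled in counting.

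The unequal change of the nidogens was tested within each mouse, as the log2 ratio of Nid2 to Nid1, which does not depend on the scaling of a library. The ratio was -2.18 ± 0.27 (SD) in saline mice and rose by 0.45 at 2 weeks and by 0.53 at 4 weeks in permutation tests (adjusted p = 0.00396 for both, over 12 ratio tests). Saline mice ranged from -2.74 to -1.85, which overlapped with both bleomycin groups. At 4 weeks mice 1 to 3 stood at -2.30 to -1.83 and the other 7 at -1.64 to -1.40. Without mice 1 to 3 the 4-week difference was 0.70 (exact permutation test, adjusted p = 6.17e-04). In recovery the ratio stood at -2.43 ± 0.13 at 6 weeks and at -2.43 ± 0.30 at 10 weeks. Neither difference from saline passed the exact permutation test (adjusted p = 0.0796 and 0.0989).

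Collagen IV alpha 1 and alpha 2 chains form the trimer found in nearly all basement membranes. Col4a1 counts ranged from 2004 to 6536 in saline mice (median 4568) and from 1396 to 5011 at 2 weeks (median 2891). Its log2 fold change of -0.58 ± 0.20 (adjusted p = 0.0177) lay just outside the fold threshold. Col4a2 ranged from 1091 to 4024 in saline mice (median 2965) and from 767 to 3266 at 2 weeks (median 1842), and fell by 0.65 ± 0.23 on the log2 scale (adjusted p = 0.0227). That call was lost with edgeR, DESeq2, 42 mice and a fit of the 2 groups alone, with log2 values of -0.56, -0.58, -0.59 and -0.65 and an adjusted p of 0.0506 with 42 mice and 0.0569 with 2 groups. The groups of both genes overlapped at every time.

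At 4 weeks Col4a1 counts were 2401 to 2592 in mice 1 to 3 and 3730 to 6175 in the other 7, and Col4a2 counts 1648 to 1696 and 2825 to 4396. Over all 10 mice Col4a1 had a median of 4826 and a log2 fold change of -0.07 ± 0.20 (adjusted p = 0.825), and Col4a2 a median of 3717 and a log2 fold change of 0.14 ± 0.23 (adjusted p = 0.666). Col4a2 was higher at 4 weeks than at 2 weeks by 0.79 ± 0.23 on the log2 scale (adjusted p = 0.0310), but with 42 mice the value was 0.73 with an adjusted p of 0.0522, and with only the 2 groups in the fit the adjusted p was 0.0948. Without the 3 low mice at 4 weeks the difference was 1.14 (adjusted p = 0.00140). The ratio of Col4a1 to Col4a2 was also taken within each mouse. It was 0.68 ± 0.11 on the log2 scale in saline mice and 0.75 ± 0.13 at 2 weeks, a difference that did not pass the test (permutation test, adjusted p = 0.277). It was lower by a log2 difference of -0.21 at 4 weeks (permutation test, adjusted p = 0.00252), and by -0.25 without mice 1 to 3. As the genes overlap each other at their starts, the ratio also depends on how strand was handled. In exact permutation tests it was lower by -0.21 at 6 weeks of recovery and by -0.15 at 10 weeks (adjusted p = 0.00252 and 0.0156). All 6 mice at 6 weeks of recovery lay between 0.45 and 0.50, below the saline range of 0.54 to 0.88.

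**Figure D2:**
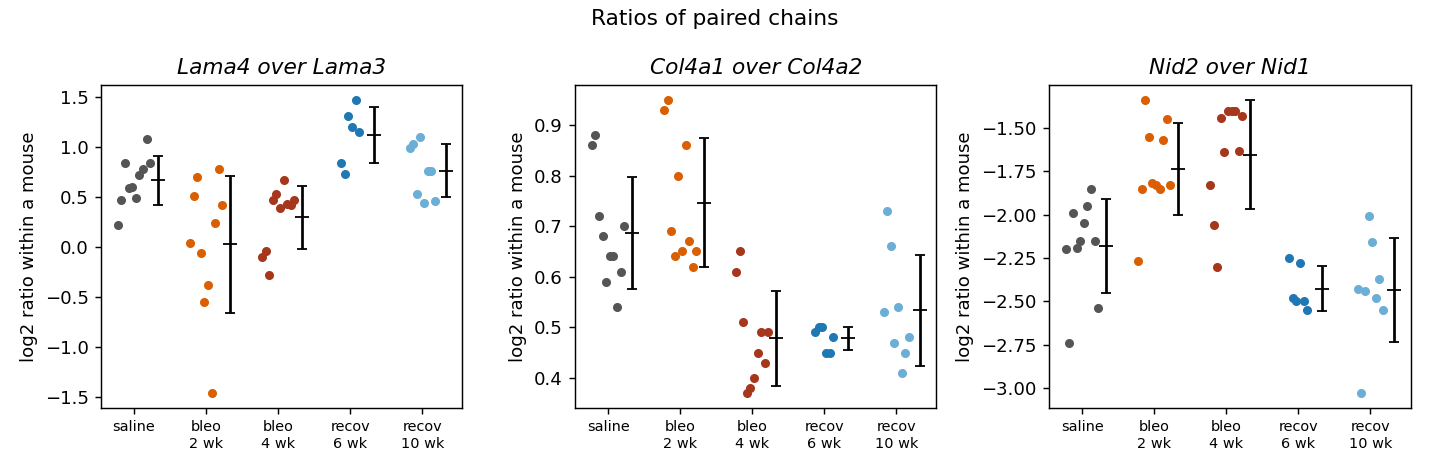
Log2 ratio of 2 genes within each mouse for Lama4 over Lama3, Col4a1 over Col4a2 and Nid2 over Nid1, in the 5 groups; points are mice and bars are mean and SD. The Lama4 to Lama3 ratio is lowest at 2 weeks (mean 0.02) and highest at 6 weeks of recovery (mean 1.12), and the vertical axes do not start at 0.

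Laminin beta 1 and gamma 1 chains are shared by most vascular and stromal laminins. Lamb1 counts ranged from 805 to 1911 in saline mice (median 1434) and from 538 to 1290 at 2 weeks (median 860), with overlap. It fell by 0.68 ± 0.14 on the log2 scale (adjusted p = 1.31e-04). With 42 mice the value of -0.58 (adjusted p = 0.00121) lay just under the fold threshold. Lamc1 had a log2 fold change of -0.51 ± 0.15 (adjusted p = 0.00465), under the fold threshold, and a median of 1495 against 2460 in saline mice.

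Lama4, the alpha chain of vessel laminins, was not called at any time. Its counts ranged from 445 to 1207 in saline mice (median 1043), from 425 to 1283 at 2 weeks (median 828) and from 801 to 1094 at 4 weeks (median 1023). The log2 fold changes were -0.20 ± 0.16 at 2 weeks (adjusted p = 0.344) and 0.10 ± 0.16 at 4 weeks (adjusted p = 0.654), with 95% intervals of -0.53 to 0.12 and of -0.22 to 0.43. In the 6-week recovery group all 6 mice were above the saline median, from 1115 to 1335, but the difference of 0.42 ± 0.19 did not pass the test (adjusted p = 0.143).

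Col15a1 encodes a collagen of vessel and muscle sheets with a cleavable end. It ranged from 872 to 2847 in saline mice (median 2084) and from 407 to 2192 at 2 weeks (median 922), and 9 of the 10 mice at 2 weeks lay below the saline median. It fell by 0.96 ± 0.23 on the log2 scale (adjusted p = 0.00108), and by 0.89 with 42 mice (adjusted p = 0.00192). At 4 weeks the log2 fold change was -0.45 ± 0.23 (adjusted p = 0.130).

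Lama2 and Lamc3 were among the shared members that fell. Lama2, the alpha chain of muscle and nerve laminins, had medians of 158 in saline mice and 95.5 at 2 weeks, and fell by 0.67 ± 0.13 on the log2 scale (adjusted p = 9.24e-05). Lamc3, the third gamma chain, had medians of 309 and 123 and a log2 fold change of -1.09 ± 0.25 (adjusted p = 4.73e-04), and none of the 10 mice at 2 weeks reached the saline median. Lamc3 was higher at 4 weeks than at 2 weeks by 0.96 ± 0.25 (adjusted p = 0.0166), a call lost with only the 2 groups in the fit (adjusted p = 0.0628). Its 4-week median was 242.

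Among the 9 epidermal genes, Fras1 was called lower in both bleomycin groups, and the chains Lama3, Lamb3, Col17a1 and Col7a1 were not called. Lama3, the epidermal alpha chain, ranged from 382 to 739 in saline mice (median 588) and from 299 to 1210 at 2 weeks (median 817), and 9 of 10 mice lay above the saline median. At 4 weeks it ranged from 686 to 999 (median 769), and all 10 mice lay above that median. The log2 fold changes of 0.44 ± 0.14 (adjusted p = 0.0111) and 0.47 ± 0.14 (adjusted p = 0.00624) passed the adjusted p but were below the fold threshold, so Lama3 was not called.

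Lamb3, its beta chain partner, ranged from 618 to 1696 in saline mice (median 1412) and from 1663 to 1961 at 4 weeks (median 1800). The log2 fold change was 0.27 ± 0.12 at 2 weeks (adjusted p = 0.0797) and 0.49 ± 0.12 at 4 weeks (adjusted p = 0.00131), below the fold threshold. Lamb3 overlaps Hsd11b1 in the annotation, and a setting for strand is not given in the sources used here, so its count is uncertain to that extent.

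Col17a1 ranged from 4770 to 16391 in saline mice (median 12987) and from 14346 to 16945 at 4 weeks (median 16416). Saline mice were more spread, with an SD of 3464 against 913 at 4 weeks. The log2 fold change was 0.44 ± 0.14 at 4 weeks (adjusted p = 0.0104) and 0.30 with 42 mice (adjusted p = 0.00846), both below the fold threshold. Col7a1, the collagen of anchoring fibrils, ranged from 895 to 2339 in saline mice (median 2002) and from 1972 to 2699 at 4 weeks (median 2137), with a log2 fold change of 0.30 ± 0.12 (adjusted p = 0.0503). The other epidermal collagen IV chains, Col4a5 and Col4a6, had log2 fold changes between 0.01 and 0.22 in both bleomycin groups, and neither was called.

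**Figure D3:**
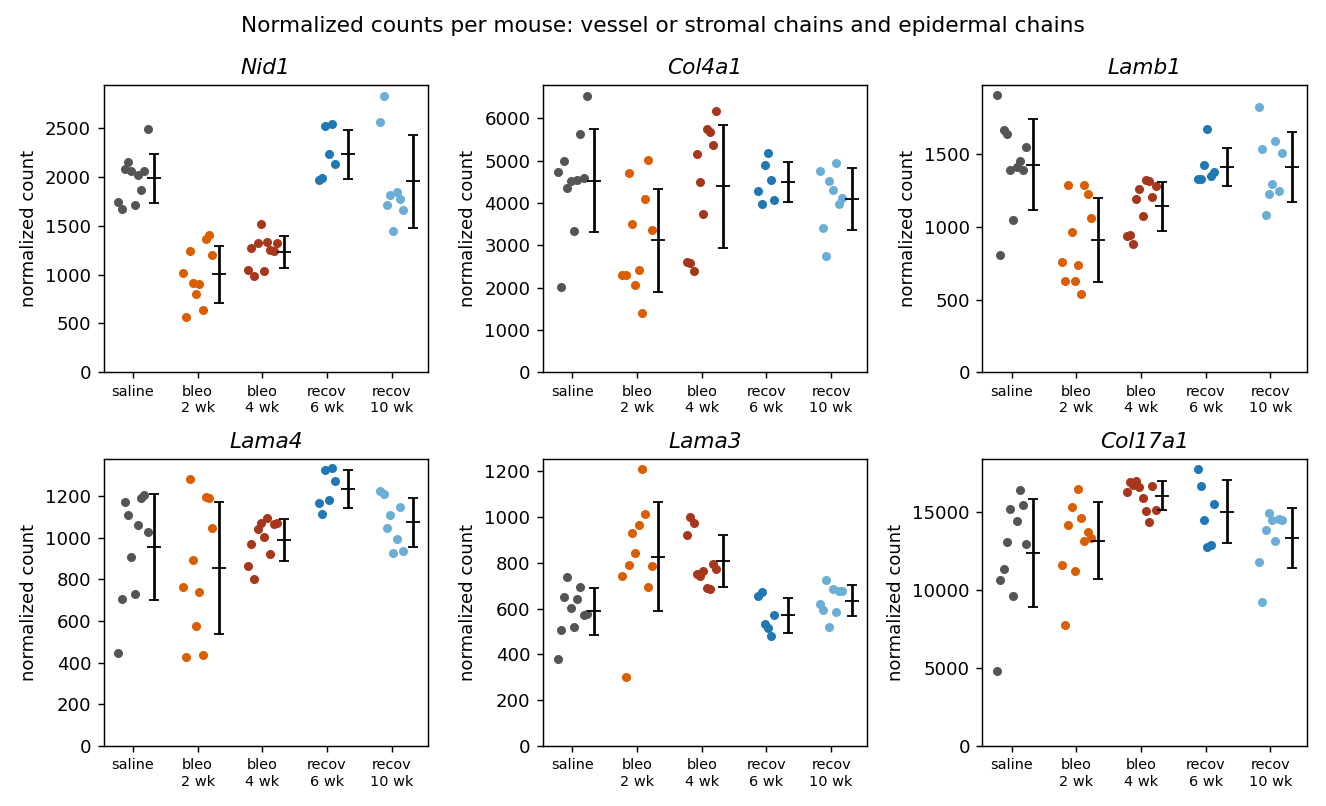
Normalized counts of Nid1, Col4a1, Lamb1, Lama4, Lama3 and Col17a1 in each of the 44 mice, by group; points are mice and bars are mean and SD. Nid1 lies between 570 and 1515 in the bleomycin mice, below the saline range of 1672 to 2494, whereas the groups of the other 5 genes overlap saline.

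Across the classes, the median log2 fold change at 2 weeks was -0.59 for the 10 vascular or stromal genes, none of which was above 0, and 0.13 for the 9 epidermal genes, 7 of which were above 0. The median of all genes tested was 0.00. With 42 mice 1 of the 10 was above 0 and the median was -0.52, and TMM scaling left 0 of 10 above 0. In the narrower epidermal group of Lama3, Lamb3, Col17a1 and Col7a1, all 4 were above 0 at 2 and at 4 weeks, with medians of 0.25 and 0.46, and 0 of the 4 were called by limma, edgeR or DESeq2. By unadjusted p below 0.05 in limma, 2 of the 4 were higher at 2 weeks and 4 of 4 at 4 weeks. The narrower vascular group of Lama4 and Col15a1 had medians of -0.58 at 2 weeks and -0.17 at 4 weeks. Of these 2 genes 0 and 1 were above 0, and with 42 mice 0 were above 0 at 4 weeks. Col15a1 was called lower at 2 weeks, and neither was called at 4 weeks. At 4 weeks the class medians were -0.11 for the vascular or stromal and 0.22 for the epidermal genes, with 4 of 10 and 8 of 9 above 0. These counts describe the classes and were not tested against other genes.

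The contrast of vascular with epidermal chains was tested on the laminin alpha chains, as the log2 ratio of Lama4 to Lama3 within a mouse. It was 0.66 ± 0.24 (SD) in saline mice, ranging from 0.22 to 1.08. At 2 weeks it was 0.02 ± 0.68 and ranged from -1.46 to 0.78, a difference of -0.64 (permutation test, adjusted p = 0.010). At 4 weeks it was 0.30 ± 0.32 and the difference was -0.37 (permutation test, adjusted p = 0.0138). That difference rested on mice 1 to 3, at -0.28 to -0.04, whereas the other 7 lay between 0.39 and 0.67, within the saline range, and without the 3 mice it was -0.18 (permutation test, adjusted p = 0.0989). At 6 weeks of recovery it was 1.12 ± 0.28, above saline by 0.45 (exact permutation test, adjusted p = 0.010). At 10 weeks it was 0.76 ± 0.26, and the difference of 0.10 from saline did not pass the test (exact permutation test, adjusted p = 0.426). The groups overlapped with saline at each time, and without the 2 mice that stood apart the differences were -0.74, -0.42, 0.41 and 0.05.

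Within the epidermal class 2 of 9 genes were below 0 at 2 weeks, Fras1 and Frem1. Fras1 and its relatives Frem1 and Frem2 form a complex in the sublamina densa that ties epidermis to dermis. Fras1 ranged from 41.1 to 266 in saline mice (median 94.5), from 20.8 to 109 at 2 weeks (median 59.7) and from 47.5 to 106 at 4 weeks (median 59.4). It fell by 0.93 ± 0.24 on the log2 scale at 2 weeks (adjusted p = 0.00202) and by 0.65 ± 0.24 at 4 weeks (adjusted p = 0.0305). With 42 mice the value at 2 weeks was -0.64 (adjusted p = 0.0181), and that at 4 weeks was -0.50 (adjusted p = 0.0539) and no longer called, as with only the 2 groups in the fit (adjusted p = 0.0513) and without 4-week mice 1 to 3 (-0.62, adjusted p = 0.0734). Frem1 had a log2 fold change of -0.47 ± 0.19 at 2 weeks (adjusted p = 0.0547), and neither it nor Frem2 was called against saline. Frem1 was higher at 4 weeks than at 2 weeks by 0.62 ± 0.19 (adjusted p = 0.0484), and this call was lost with edgeR, DESeq2 and 42 mice, where the value was 0.42 (adjusted p = 0.0771).

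At 4 weeks of bleomycin 3 of 31 members were called (9.68%), against 17.9% of all genes. Nid1 and Fras1 were lower and Col18a1 was higher, against 7.37% of all genes called lower and 10.5% called higher. Without the fold threshold 8 passed, 5 of them higher, against 36.6% of all genes. Col18a1, a collagen of vessel and epithelial sheets whose cut end is endostatin, ranged from 1003 to 2553 in saline mice (median 1916) and from 1500 to 3761 at 4 weeks (median 3457), and 8 of the 10 mice lay above the saline median. Mice 1 to 3 stood at 1500 to 1934, within the saline range, and the other 7 at 2464 to 3761. It rose by 0.62 ± 0.18 on the log2 scale (adjusted p = 0.00633), and by 0.91 without mice 1 to 3. At 2 weeks its log2 fold change was -0.03 ± 0.18 (adjusted p = 0.917), and it was higher at 4 weeks than at 2 weeks by 0.65 ± 0.18 (adjusted p = 0.0270). Col18a1 overlaps Slc19a1 on the opposite strand, so the strand setting bears on its count as well. Between 4 and 2 weeks 4 members were called higher, which were Col4a2, Lamc3, Col18a1 and Frem1 (12.9%, against 1.49% of all genes called higher and 2.35% in either direction), and 0 were called lower by limma, edgeR or DESeq2, with 0 lower at an unadjusted p below 0.05. With only the 2 groups in the fit none of the 4 calls held, with 42 mice 2 did, and without 4-week mice 1 to 3 there were 7 calls, all higher, 3 of them among the 4.

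**Figure D4:**
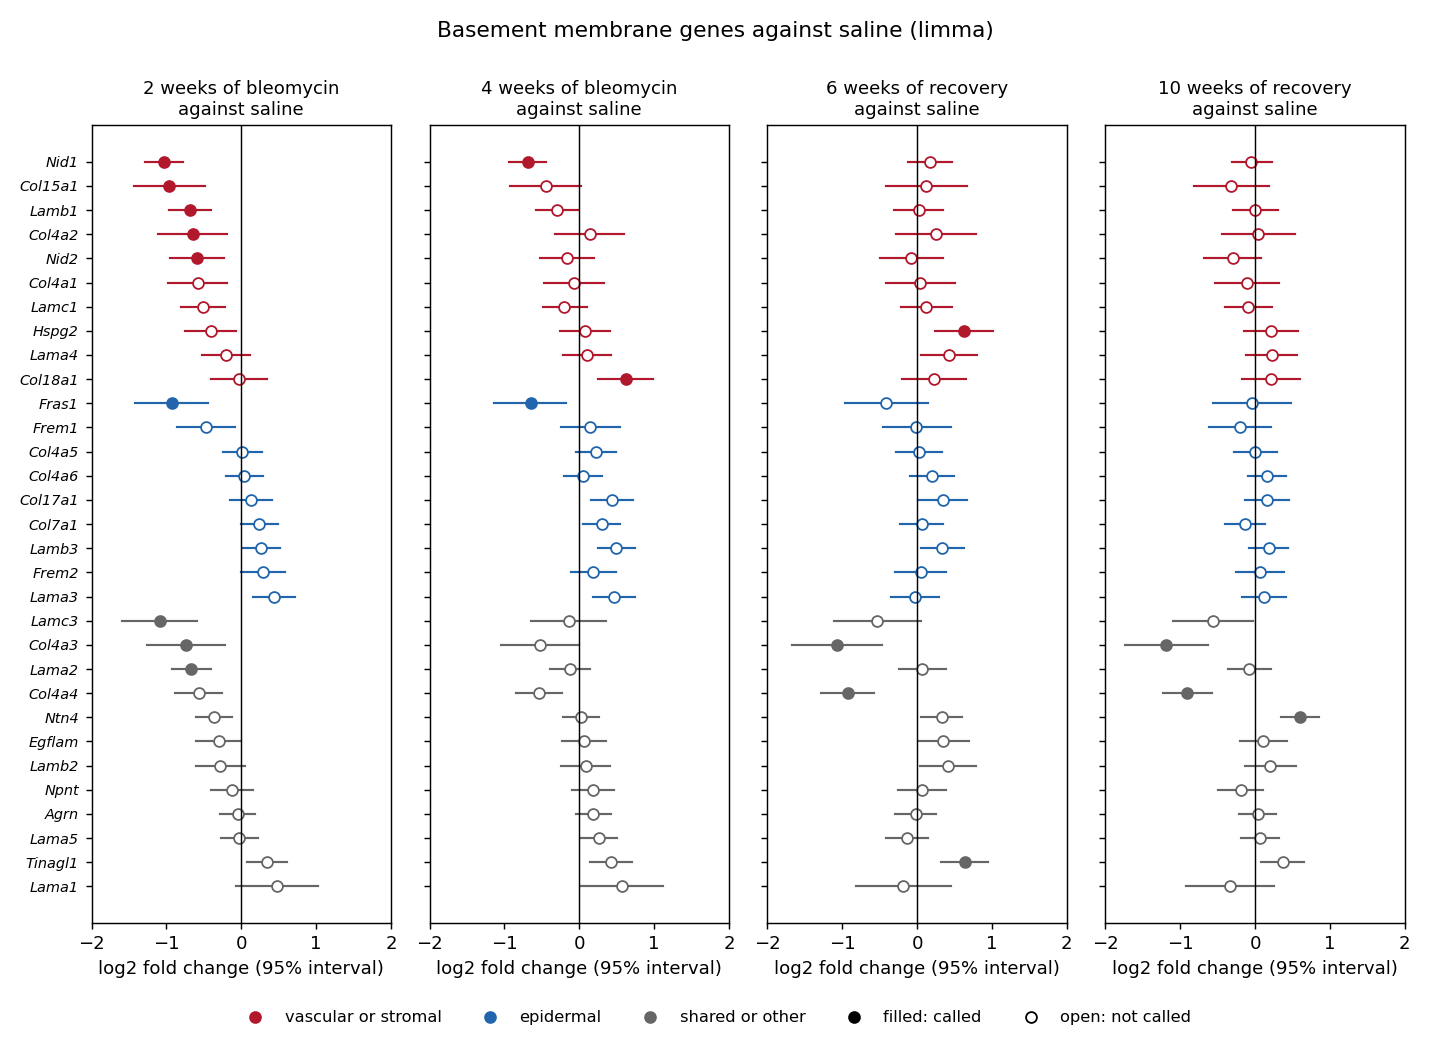
Log2 fold change of each member against saline in the 4 comparisons, with 95% intervals from limma; red, vascular or stromal; blue, epidermal; grey, shared or other; filled points were called. At 2 weeks 9 members are filled and lie below 0, and at 10 weeks of recovery 3 are filled (Col4a3 and Col4a4 below 0, Ntn4 above).

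Recovery was compared with saline in the same way. Against saline there were 4 after 6 weeks (12.9%, against 5.04% of all genes) and 3 after 10 weeks (9.68%, against 3.05%). Hspg2 and Tinagl1 were higher at 6 weeks and Ntn4 at 10 weeks, where 3.33% and 2.05% of all genes were called higher. Col4a3 and Col4a4 were lower at both, where 1.71% and 0.998% of all genes were called lower. Both comparisons use the same saline mice and are not independent.

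Col4a3 and Col4a4, with Col4a5, form the collagen IV trimer best known from the kidney filter, and their genes start 71 bases apart, as printed above. Col4a3 (ENSMUSG00000079465.6) was a low-count gene, with values from 17.9 to 104 in saline mice (median 67.2). Its values ran from 16.8 to 41.0 at 6 weeks of recovery (median 30.3) and from 16.8 to 38.3 at 10 weeks (median 27.0). It fell by 1.07 ± 0.30 on the log2 scale at 6 weeks (adjusted p = 0.0180) and by 1.19 ± 0.27 at 10 weeks (adjusted p = 0.00589). The lowest saline value came from saline mouse 1, and with 42 mice the log2 values were -1.26 and -1.38.

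Col4a4 (ENSMUSG00000067158.9) ranged from 72.7 to 176 in saline mice (median 130), from 58.5 to 85.1 at 6 weeks of recovery (median 65.4) and from 51.4 to 91.9 at 10 weeks (median 69.3). It fell by 0.93 ± 0.18 on the log2 scale at 6 weeks (adjusted p = 5.03e-04) and by 0.91 ± 0.16 at 10 weeks (adjusted p = 3.73e-04). All 6 and all 8 recovery mice lay below the saline median for both genes. At 2 weeks of bleomycin Col4a3 was called lower with a log2 fold change of -0.74 ± 0.26 (adjusted p = 0.0223, but 0.0936 with only the 2 groups in the fit), while Col4a4 was just outside the fold threshold at -0.57 ± 0.15 (adjusted p = 0.00295). At 4 weeks neither was called by limma, with log2 fold changes of -0.52 ± 0.26 (adjusted p = 0.110) and -0.54 ± 0.15 (adjusted p = 0.00462). Col4a3 was called by edgeR at -0.61 (adjusted p = 0.0327) and by DESeq2 at -0.62 (adjusted p = 0.0175). With 42 mice both genes were called, at -0.72 and -0.63.

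Hspg2, which encodes perlecan, ranged from 238 to 585 in saline mice (median 402), from 203 to 477 at 2 weeks (median 332) and from 510 to 857 at 6 weeks of recovery (median 630). At 6 weeks it rose by 0.63 ± 0.19 on the log2 scale (adjusted p = 0.0333), and all 6 mice lay above the saline median. Tested without the filter on low values, the adjusted p was 0.0530. Tinagl1, a secreted protein of vessel and other sheets, ranged from 188 to 308 in saline mice and from 338 to 465 at 6 weeks of recovery, with no overlap, as was true of 1.95% of all genes. It rose by 0.64 ± 0.16 (adjusted p = 0.00646). At 2 and 4 weeks of bleomycin its log2 fold changes were 0.34 and 0.43, below the fold threshold, and at 4 weeks it was called without mice 1 to 3, at 0.65.

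Ntn4, a netrin that binds laminins, ranged from 230 to 579 in saline mice (median 345), from 226 to 325 at 2 weeks (median 273) and from 364 to 829 at 10 weeks of recovery (median 526). At 10 weeks all 8 mice lay above the saline median, and it rose by 0.60 ± 0.13 on the log2 scale (adjusted p = 0.00235). With only these 2 groups in the fit the adjusted p was 0.0557. At 2 weeks it was lower by a log2 fold change of -0.36 ± 0.12 (adjusted p = 0.0146), below the fold threshold.

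**Figure D5:**
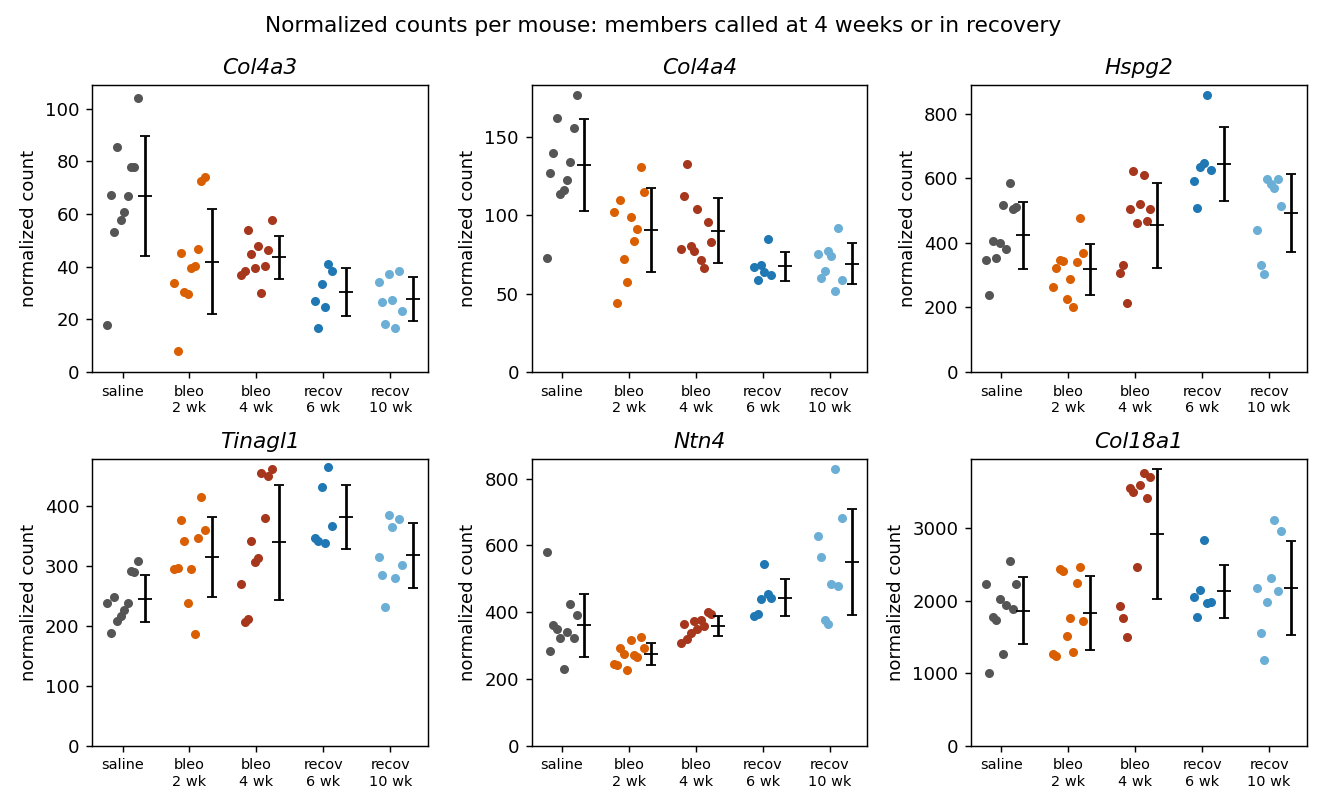
Normalized counts of Col4a3, Col4a4, Hspg2, Tinagl1, Ntn4 and Col18a1 in each of the 44 mice, by group; points are mice and bars are mean and SD. Col4a3 and Col4a4 are low in both recovery groups, with medians of 30.3 and 65.4 at 6 weeks, and Tinagl1 at 6 weeks lies above the saline range of 188 to 308.

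Set against the 4-week bleomycin mice, Nid1 was called higher in both recovery groups. All 6 mice at 6 weeks, from 1969 to 2545, lay above the 4-week range of 982 to 1515. The log2 differences were 0.86 ± 0.15 at 6 weeks (adjusted p = 1.45e-05) and 0.64 ± 0.13 at 10 weeks (adjusted p = 1.78e-04). Without 4-week mice 1 to 3 they were 0.79 and 0.57, the latter just under the fold threshold. These comparisons share the 4-week mice. Nid1 was the 1 member called of 31 at 6 weeks (3.23%, against 11.9% of all genes, and 4.80% called higher), and DESeq2 also called Lama1 lower. Without the fold threshold 4 members passed, against 25.0% of all genes. Lama3, Lama4 and Lamb1 did not overlap between 4 weeks of bleomycin and 6 weeks of recovery, as was true of 10.2% of all genes, with log2 differences of -0.50, 0.32 and 0.32. Of these 3, only Lama3 had an adjusted p below 0.05 (0.0171).

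At 10 weeks of recovery Nid1 and Lama1 were the 2 members called against 4 weeks (6.45%, against 15.8% of all genes, with 6.73% called higher and 9.10% lower). The count was 4 with edgeR, with 42 mice and with only the 2 groups in the fit, and 5 with DESeq2, the added members being Col4a3, Fras1 and Ntn4. Without 4-week mice 1 to 3 neither of the 2 was called, and Col18a1 was called lower, at -0.70 (adjusted p = 0.00323). Without the fold threshold 5 members passed, against 32.7% of all genes. Lama1, an alpha chain best known from embryonic sheets, fell by 0.90 ± 0.29 on the log2 scale (adjusted p = 0.0138) and had low counts, with medians of 41.8 and 21.5. Mouse 3 at 4 weeks stood at 116, and without it the log2 difference was -0.73 (adjusted p = 0.0378), also an alternative chosen after seeing the data. Between 10 and 6 weeks of recovery 0 members were called by limma, edgeR or DESeq2, against 0.0880% of all genes, and 1 member was lower at an unadjusted p below 0.05 in limma.

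The remaining members, Lama5, Lamb2, Agrn, Npnt, Egflam, Col4a5, Col4a6 and Frem2, were not called in any comparison. Lama5, the alpha chain of epithelial and adult vessel laminins, had medians from 1324 to 1708 over the groups, and Lamb2 from 1574 to 2568. Agrn had medians from 2858 to 3261. Npnt, an integrin ligand of hair follicle and muscle sheets, had medians from 469 to 610. Egflam, a dystroglycan ligand, had medians from 202 to 324.

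Among 16 genes of basement membrane receptors and their linkers, 2 rose at 2 weeks and 4 rose at 4 weeks. The list includes the plakins Dst and Plec, which are not receptors, though its genes are called receptor genes below. At 2 and 4 weeks 9.30% and 10.5% of all genes were called higher. In limma, edgeR or DESeq2 0 of the list fell at either time, although 4 and 1 were lower at an unadjusted p below 0.05 in limma. The 2 with the largest change at 4 weeks were Itga7, the laminin-binding integrin alpha chain of muscle, with a log2 fold change of 0.97 (adjusted p = 1.66e-08), and Dst, a plakin of hemidesmosomes and nerve, at 0.77 (adjusted p = 2.64e-06). Itgb4, the integrin beta chain of the hemidesmosome, rose by 0.72 (adjusted p = 0.0155). After 6 weeks of recovery 1 receptor gene rose and after 10 weeks 0 were called, with 5 higher at an unadjusted p below 0.05 and 0 called by edgeR or DESeq2. With 42 mice the receptor calls in either direction were 3, 3, 0 and 0 in the 4 comparisons with saline. DESeq2 called 3 receptor genes higher at 4 weeks.

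Among 18 genes for assembly and remodelling of the sheet, 5 fell at 2 weeks and 1 fell at 4 weeks, where 7.43% and 7.37% of all genes were called lower. Those at 2 weeks were Smoc1, Fbln1, Fbln2, Loxl2 and Serpinh1. Smoc1, a secreted calcium-binding protein of basement membranes, had log2 fold changes of -1.01 at 2 weeks (adjusted p = 1.00e-04) and -0.78 at 4 weeks (adjusted p = 0.00200). In the 6-week recovery group the gelatinase Mmp2 rose by 0.94 (adjusted p = 2.45e-04) and Sparc, which binds collagen, by 0.69 (adjusted p = 0.0491). After 10 weeks of recovery 0 were called by limma, edgeR or DESeq2, with 1 higher at an unadjusted p below 0.05. At 6 weeks of recovery edgeR called 1 gene of this list higher. With 42 mice its calls in either direction were 6, 2, 1 and 0 in the 4 comparisons with saline.

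Markers of cell types moved beside these results, and their part in them was not tested. In the 4 comparisons with saline 9.30%, 10.5%, 3.33% and 2.05% of all genes were called higher. The shares called lower were 7.43%, 7.37%, 1.71% and 0.998%. The marker lists hold few genes, and their counts were not tested against these shares. Of 6 fibroblast genes 4 fell at 2 weeks, 2 at 4 weeks and 1 at each recovery time, where DESeq2 called 3 lower at 10 weeks. With 42 mice 3 fibroblast genes were called at 4 weeks and 3 after 10 weeks of recovery. Their summed count had medians of 101504 in saline mice, 72420 and 108629 at 2 and 4 weeks of bleomycin, and 137216 and 72418 at 6 and 10 weeks of recovery. The 2 with the largest change at 4 weeks were Dpt at -1.46 and Pdgfra at -1.08 on the log2 scale. At that time 3 of the 6 fibroblast genes were above 0, and the median of the list was -0.18. Of 10 endothelial genes 3 rose in each bleomycin group, 6 after the shorter recovery and 0 after the longer, where 6 were higher at an unadjusted p below 0.05 and edgeR and DESeq2 called 0. With 42 mice 4 endothelial genes were called in either direction at 4 weeks. The endothelial sum had medians of 3528 in saline mice and 4876 at 2 weeks, and Vwf and Emcn had log2 fold changes of 0.98 and 0.90 at 4 weeks. At 2 weeks Col15a1 was called lower and Lama4 was not called, and how this relates to the endothelial genes was not tested.

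The 8 genes of growing hair follicles that were used fell by more than any member, 8 of 8 at 2 and at 4 weeks. Their summed count in saline mice had a median of 38620 and a range of 2025 to 205005. It was 148 and 187 after 2 and 4 weeks of bleomycin, and 10409 and 86153 after 6 and 10 weeks of recovery (medians). Krt25 and Krt71, keratins of the inner root sheath, had log2 fold changes of -8.34 and -8.07 at 4 weeks. After 6 weeks of recovery limma called 1 of the 8 lower, Shh, with 4 lower at an unadjusted p below 0.05, and edgeR called 2 and DESeq2 3, and after 10 weeks 0 were called by limma, edgeR or DESeq2, with 0 at an unadjusted p below 0.05 in limma. With 42 mice 0 of the 8 were called after 6 weeks of recovery. Of 8 basal keratinocyte genes, Dst rose and Cdh3 fell at 2 weeks, and Dst and Itgb4 rose at 4 weeks. Dst, Itgb4 and Itga6 are also in the receptor list above, so the calls of Dst and Itgb4 are the same calls. At 4 weeks DESeq2 called 1 of these 8 higher, and 1 was called with 42 mice. Of 5 macrophage genes 3 rose at 2 and at 4 weeks, Cd68 by 1.29 and Adgre1 by 1.10 at 4 weeks, and none was called in recovery.

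Of 5 pericyte genes Rgs5 rose in all 4 comparisons with saline, Kcnj8 at 6 weeks of recovery, and Cspg4 fell at 2 weeks. With 42 mice the pericyte calls in either direction were 1, 0, 1 and 1, and DESeq2 called 0 at 4 weeks. Of 5 adipocyte genes 2 fell at 2 weeks and 3 at 4 weeks, with Lep at -1.68 and Fabp4 at -0.79 on the log2 scale at 4 weeks, and none was called in recovery. Of 7 skeletal muscle genes 1, 2, 2 and 1 rose in the 4 comparisons, with Des at 0.94 and Myh1 at 0.69 at 4 weeks. At 4 weeks 4 of the 7 were above 0, and the list had a median of 0.00 and a lowest value of -0.44. After 10 weeks of recovery 0 muscle genes were called by edgeR or with 42 mice. Of 5 suprabasal keratinocyte genes, Krt2 rose by 1.79 and Ivl fell by 1.01 at 4 weeks, and limma called none at the other times, where edgeR and DESeq2 each called 1 higher at 2 weeks. With 42 mice 1 suprabasal gene was called at 2 weeks.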

How the data were processed

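Total RNA of mouse skin was made into stranded mRNA libraries and sequenced as paired-end reads. Alignment to mm10 by the authors used STAR 2.4.0, and they normalized gene counts with DESeq2 1.12.3 and deposited the result as a signal of normalized counts for 44 mice. Neither the counting tool nor its annotation or handling of strand is given in the sources used here, so overlapping genes are uncertain. Whole reads were recovered by finding what 1 read is worth in a library. In the library with the lowest share, 100.0% of values lay within a tolerance of a whole number. The tolerance was 0.01 and was widened in proportion to the count for large counts. Symbols, positions and exon lengths were taken from GENCODE M21 on GRCm38, the build of mm10, and 42929 of 43411 identifiers had a symbol. Promoter sequences were RefSeq windows of 300 bases around gene starts. Groups followed the labels, and 0 columns were left unassigned.

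Genes with a mean above 3 were tested with limma 3.58.1 in R 4.3.3 on log2(normalized count + 1), with a mean-variance trend and all 5 groups in one fit, two-sided. A gene was called at an absolute fold change above 1.5 and a Benjamini-Hochberg adjusted p below 0.05 over all genes tested. A fold change is on the log2(value + 1) scale, which understates the change of low genes. Ratios within a mouse were compared by permuting mice between groups (two-sided, difference in means), exactly for the recovery groups and with 100000 resamples for the bleomycin groups, with p adjusted over 12 tests. The alternatives were edgeR 4.0.16 (quasi-likelihood) and DESeq2 1.42.0 on recovered reads, TMM scaling, no fold threshold, no filter on low values, a pseudocount of 0.1, 42 mice, the replicate number as a block, and only 2 groups in a fit, plus leaving out 4-week mouse 3 or mice 1 to 3, both added after seeing the data. The fits were tested on simulated data. Figures were drawn with matplotlib 3.10.9 in Python 3.11.15.

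The members, classes and gene lists were chosen with earlier results of these data known. All 31 members were named, and values by group were given for members called against saline and for Lama4, Lama3, Lamb3, Col17a1, Col7a1, Col4a1 and Col4a2. Of the other lists, the 2 called genes with the largest change at 4 weeks were named, plus genes a sentence needed. The hair follicle genes Krt85 and Tchh were not used here, and 1 further list of cell type markers is not reported here. The labels do not say that mice with the same number are related, and they are different animals. Nothing in the labels gives a batch.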

Additional observations from a re-analysis of the deposited data

Results flagged for a closer look

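Among the 155 groups of values (31 members in 5 groups of mice), 9 single values lay far from the others of their group by Dixon's criterion, where chance alone gives about 1 in 20 groups, or 7.75. Values of the same mouse are not independent of each other. The normalized count of Lama1 was 116 in mouse 3 at 4 weeks of bleomycin, against 18.9 to 42.7 in the others, and 75.2 in saline mouse 6, against 11.9 to 37.4. Of the 2 mice that stood apart, 2-week mouse 2 accounted for 2 values, with a Col4a5 count of 108 against 285 to 411 and an Agrn count of 1373 against 2613 to 3349. Nid2 was 249 in saline mouse 2, against 379 to 525. At 6 weeks of recovery, Col4a4 was 85.1 in mouse 5 against 58.5 to 68.2, Lamb2 was 2295 in mouse 6 against 2562 to 2705, and mouse 4 was high for Lamb1 (1673 against 1333 to 1428) and for Col18a1 (2844 against 1776 to 2144).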

How the results depend on the processing

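Of 26 calls of a member in a comparison, 13 were made under every alternative run on them, and the value of none of the 26 changed direction. Without the fold threshold 15 members passed at 2 weeks against saline, 8 at 4 weeks, 4 at 6 weeks of recovery against 4 weeks of bleomycin and 5 at 10 weeks against 4 weeks. Between 4 and 2 weeks of bleomycin, 2 members were called with 42 mice and 0 with only 2 groups in the fit, against 4. At 6 weeks of recovery against 4 weeks of bleomycin DESeq2 called 2, against 1. At 10 weeks of recovery against 4 weeks, edgeR called 4, DESeq2 called 5, and 42 mice and 2 groups in the fit each gave 4, against 2; the added members were Col4a3, Fras1 and Ntn4. The counts of calls against saline in recovery were within 1.5 times of 4 and 3 under every alternative run, and the ratios kept their side of the threshold with a pseudocount of 0.1, with 42 mice and as differences of medians. Without 4-week mice 1 to 3, an alternative chosen after seeing the data, 7 members were called between 4 and 2 weeks, 2 at 6 weeks of recovery against 4 weeks and 1 at 10 weeks against 4 weeks, and the Lama4 to Lama3 difference at 4 weeks was -0.18 (permutation test, adjusted p = 0.0989). The cause of these shifts was not tested. Depth limits the members with few reads most, such as Lama1, Col4a3, Fras1 and Frem1.

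Replicate numbers are shared between groups, but the mice are different animals. Deviations of same-numbered mice from their group means correlated at a median of 0.00 at 2 weeks and at 4 weeks against saline, 0.04 at 6 weeks and -0.12 at 10 weeks of recovery, so the numbers were not taken as pairs. With the replicate number as a block 9, 3, 4 and 3 members were called against saline, as without it, and 3 were called at 6 weeks of recovery against 4 weeks of bleomycin, against 1, with Col15a1 and Hspg2 added.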
